A study of Rattus norvegicus with 16 samples.

Results

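The microRNA-200 (miR-200) family was followed in kidney and blood plasma of rats injected with iodinated contrast medium or with saline. Its 5 members, rno-miR-200b, rno-miR-200a, rno-miR-429, rno-miR-200c and rno-miR-141, were taken by name from the 350 rat microRNAs (miRNAs) on the array, where each had 2 probes; they are written below without the species prefix. MiRNAs are short RNAs that pair with target mRNAs mainly through the seed, bases 2 to 8 from the 5′ end, and lower the output of those targets. The miR-200 family is best known from epithelial cells, which line tubules and ducts. There it holds down ZEB1 and ZEB2, the transcription factors that repress E-cadherin, and loss of the family accompanies the transition of epithelial to mesenchymal cells. In the kidney the family is known from the epithelium of tubules and collecting ducts. The arrays read miRNAs, not these targets.

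All 24 male Sprague-Dawley rats, of 250 to 300 g, went without water for 3 days and were given the loop diuretic furosemide at 10 mg/kg by intramuscular injection, so the controls share the dehydration and the diuretic. In the contrast-induced acute kidney injury (CI-AKI) groups, 12 rats were then injected with the contrast agent iohexol (Omnipaque, at 350 mg of iodine per ml) at 10 ml/kg. In the control groups, 12 rats received the same volume of saline. Plasma and kidney were taken after 8 h, each pool held the RNA of 3 rats, and each of 4 pools per treatment and tissue went to 1 array, 16 arrays in all. A pool is a mean of 3 animals, and single animals were not read.

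Several features of the arrays bear on every value. The 8 plasma arrays were on 1 slide and the 8 kidney arrays on the other, so tissue and slide cannot be told apart, and control and CI-AKI pools lay in alternating columns, so treatment and slide column cannot be told apart either. The labels give each array 1 of 8 letter codes, once per tissue, and 6 of the 8 letters stand for opposite treatments in plasma and kidney; letters G (CI-AKI) and H (control), both pool 4, have the same treatment in both tissues. Groups were taken from the titles, and results for the letters G and H alone are given beside the treatment comparison. Pool 4 of both plasma groups stood apart, with 84 and 95 miRNAs detected where the other plasma arrays had 156 to 211 and the kidney arrays 169 to 216. The lowest detected scaled signals on these 2 arrays were 20.9 and 18.4 on the plasma scale, and no member of the family was detected on either. The tissue labels matched the liver and tubule markers, on the scale shared by all 16 arrays. MiR-122, the main liver miRNA, sat at the floor on every kidney array and at 689 to 6188 in plasma. The summed signal of the tubule miRNAs miR-192, miR-194 and miR-204 was 903 to 1041 in kidney and 248 to 685 in plasma. A wider list of 15 epithelial miRNAs, which holds these tubule miRNAs, did not separate the tissues. Its sum was 1058 to 1194 in kidney and 541 to 1633 in plasma.

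The mature sequences from RefSeq (assembly GRCr8) are shown because the seed, in capitals, divides the family. Entries for 2 of the mature guide strands, those of miR-200c and miR-141, were matched by name.
rno-miR-200c-3p: uAAUACUGccggguaaugaug
rno-miR-141-3p: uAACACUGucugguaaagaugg
Over the 21 aligned bases, 17 were identical. The substitutions from miR-200c-3p to miR-141-3p, counted from 1 at the 5′ end, were U4C, C9U, G11U and U17A, and U4C alone lies in the seed. The hairpin precursors were matched for all 5 members, and the 7-base seed motif, which occurs 1 time in each, is in capitals. All lie on the minus strand of GRCr8.
Mir200b, chr5:171931495-171931589: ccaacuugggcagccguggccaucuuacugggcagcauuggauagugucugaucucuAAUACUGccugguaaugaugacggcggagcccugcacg
Mir200a, chr5:171930717-171930805: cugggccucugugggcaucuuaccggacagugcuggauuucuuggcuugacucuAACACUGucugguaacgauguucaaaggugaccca
Mir429, chr5:171929682-171929766: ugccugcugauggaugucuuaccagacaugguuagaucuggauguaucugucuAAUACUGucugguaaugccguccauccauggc
Mir200c, chr4:159209965-159210033: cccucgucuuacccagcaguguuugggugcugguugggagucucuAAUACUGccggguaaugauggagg
Mir141, chr4:159209525-159209618: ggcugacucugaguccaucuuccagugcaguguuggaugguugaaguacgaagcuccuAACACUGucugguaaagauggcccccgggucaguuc
The hairpins of miR-200b, miR-200a and miR-429 lay within 1908 bases of chromosome 5. That stretch overlaps the annotated spans of the protein-coding gene Ttll10 and the long non-coding RNA LOC106182250. Whether each hairpin lies inside them, and in exon or intron, was not resolved here. Those of miR-200c and miR-141 lay within 509 bases of chromosome 4. The seed letters cut across this arrangement: AAUACUG was found in the hairpins of miR-200b, miR-429 and miR-200c, and AACACUG in those of miR-200a and miR-141. Searched on the strand of the hairpin, each of these motifs was present in 4 of 419 rat hairpins in the RefSeq table (0.955%). The array carried no passenger strand of any member. Since the members are alike in sequence, part of a probe's signal could come from another member; this was not tested.

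In kidney, all 5 members were detected on 8 of 8 arrays. In plasma, miR-200b, miR-200c and miR-141 were detected on 6 of 8 arrays, and miR-200a and miR-429 on 5 of 8: none on pool 4 of either group, and these last 2 not on CI-AKI pool 1 either. Signals were scaled here to a percentile of the miRNAs detected on all arrays compared, so a value is relative to the other miRNAs on its array and not an amount per gram of kidney or ml of plasma. With bulk RNA, fewer cells of a type and less RNA per cell cannot be told apart.

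The tissue folds given first leave out the 2 weak pool 4 arrays of plasma, on which no member was measured, and keep all 4 kidney pools. Signals and folds are on 1 scale, the percentile over the 126 miRNAs detected on the 14 arrays left. MiR-200b had the largest difference between the tissues in control pools, with a signal of 970.1 to 1089 in the 4 control kidney pools and 30.0 to 39 in control plasma pools 1 to 3. The tissues did not overlap, and kidney was higher by 29.1-fold (95% interval 23.8 to 35.6). MiR-200a, its neighbour in the chromosome 5 cluster, read 623 to 648 in control kidney and 19.8 to 28.6 in control plasma, 26.4-fold (95% interval 21.1 to 33) higher in kidney. MiR-429, the third hairpin of that cluster, read 332 to 369 and 18 to 28.9, 14.3-fold (95% interval 10.9 to 18.8) higher. The chromosome 4 pair differed less between tissues. MiR-200c read 109.6 to 127 in control kidney and 17.7 to 23 in control plasma, 6.14-fold (95% interval 4.98 to 7.57) higher in kidney. MiR-141 read 25.6 to 32.1 in control kidney and 16.5 to 24.3 in control plasma, a ratio of 1.34-fold (95% interval 1.03 to 1.75). On the scale of all 16 arrays its tissues overlapped, at 15.1 to 20.3 and 13.4 to 18.2.

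By limma, 5 of 5 members were higher in control kidney with Benjamini-Hochberg adjusted p from 8.77e-09 (miR-200b) to 0.0358 (miR-141), where 75 of all 203 miRNAs tested were higher in kidney (36.9%). The call of miR-141 was not kept under 3 changes to that fit. With the same 2 arrays left out but the 16-array scaling kept, 4 of 5 members passed against 63 of 203 miRNAs (31%), and the ratios were 23.4 for miR-200b, 21.2 for miR-200a, 11.5 for miR-429, 4.92 for miR-200c and 1.08 for miR-141 (adjusted p = 0.537). With only control plasma pool 4 left out it was also 4 of 5, against 64 of 203 (31.5%), with an adjusted p of 0.14 for miR-141. Same-numbered control pools of kidney and plasma deviated together, and with the pool number as a replicate block in the 14-array fit 4 of 5 passed against 69 of 203 (34%), with miR-141 at an adjusted p of 0.0845. With pool 4 kept, where its undetected members enter at their low values or at the floor, 4 of 5 members were higher against 59 of 178 miRNAs tested (33.1%). No member was detected on all 4 control plasma arrays, so all entered this fit only through detection in kidney. Its calls therefore add no support. The log2 differences were then 5.64 (SE 0.968, adjusted p = 0.000809) for miR-200b, 4.47 (SE 0.172, adjusted p = 1.08e-07) for miR-200a, 4.48 (SE 0.86, adjusted p = 0.00154) for miR-429, 2.36 (SE 0.145, adjusted p = 1.29e-06) for miR-200c and 0.17 (SE 0.161, adjusted p = 0.375) for miR-141, which did not pass. The median over all miRNAs tested was -0.40, and it moved with the scaling, to 0.14 with the percentile over all miRNAs, 0.58 with quantile normalization, 0.55 in the authors' deposited table, 1.36 without scaling and -1.19 with normexp background correction. The split of calls moved with it, from 59 higher and 79 lower to 80 higher and 55 lower with quantile normalization. Relative to that median, miR-200b stayed higher by 3.61 to 6.04 on the log2 scale over 7 scalings and background corrections, miR-200a by 3.13 to 4.97, miR-429 by 2.30 to 4.87 and miR-200c by 1.14 to 3.12, while miR-141 ranged from -0.0051 to 0.92. Normexp here added an offset of 50 to every spot. With normexp the difference itself was -0.054 for miR-200c, and the calls of miR-429 and miR-200c were lost (adjusted p = 0.156 and 0.933). Of all miRNAs tested, 16 of 178 then passed as higher in kidney.

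Ranked among the 145 miRNAs detected on every control array without the weak pools, where 64 were higher in kidney and the median log2 difference was -0.33, miR-200b had the largest kidney excess, miR-200a the second, miR-429 ranked 4 and miR-200c 6. MiR-141 ranked 51. This ranking was added after the data were seen.

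After contrast medium the same 4 members were higher in kidney. In CI-AKI kidney, miR-200b read 912 to 1049.9 on the 14-array scale against 25 to 40.1 in CI-AKI plasma pools 1 to 3, 32.6-fold (95% interval 23.5 to 45.1) higher. MiR-200a was higher by 32.8-fold (95% interval 20.3 to 52.9), miR-429 by 20.5-fold (95% interval 10.9 to 38.6) and miR-200c by 5.75-fold (95% interval 3.76 to 8.79); miR-200a and miR-429 enter plasma pool 1 at values that were not detected. MiR-141 read 24.6 to 32.2 in kidney, inside its plasma range of 11.5 to 44.7, with a ratio of 1.09-fold (95% interval 0.566 to 2.1). By limma, 4 of 5 members were higher in CI-AKI kidney with adjusted p of at most 2.32e-05, against 61 of 195 miRNAs tested (31.3%). With the 16-array scaling kept it was 4 of 5 against 54 of 195 (27.7%), with ratios of 29.4 for miR-200b, 29.5 for miR-200a, 18.5 for miR-429, 5.18 for miR-200c and 0.982 for miR-141. With pool 4 kept it was again 4 of 5 against 51 of 181 (28.2%), with log2 differences of 5.03 for miR-200b, 5.65 for miR-200a, 4.17 for miR-429 and 2.37 for miR-200c. With pool 4 kept, every member entered the test only through detection in kidney. Without it this held for miR-200a and miR-429. Those calls therefore add no support. MiR-141 also passed in CI-AKI pools, higher in kidney, in the authors' deposited table (adjusted p = 0.0202), on unscaled signals (0.0474) and after quantile normalization (0.0129). The calls of the other 4 were lost with normexp background correction, where the adjusted p was 0.107 for miR-200b, 0.293 for miR-200a, 0.782 for miR-429 and 0.353 for miR-200c. Of all miRNAs tested, 5 of 181 then passed as higher in kidney.

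**Figure D1:**
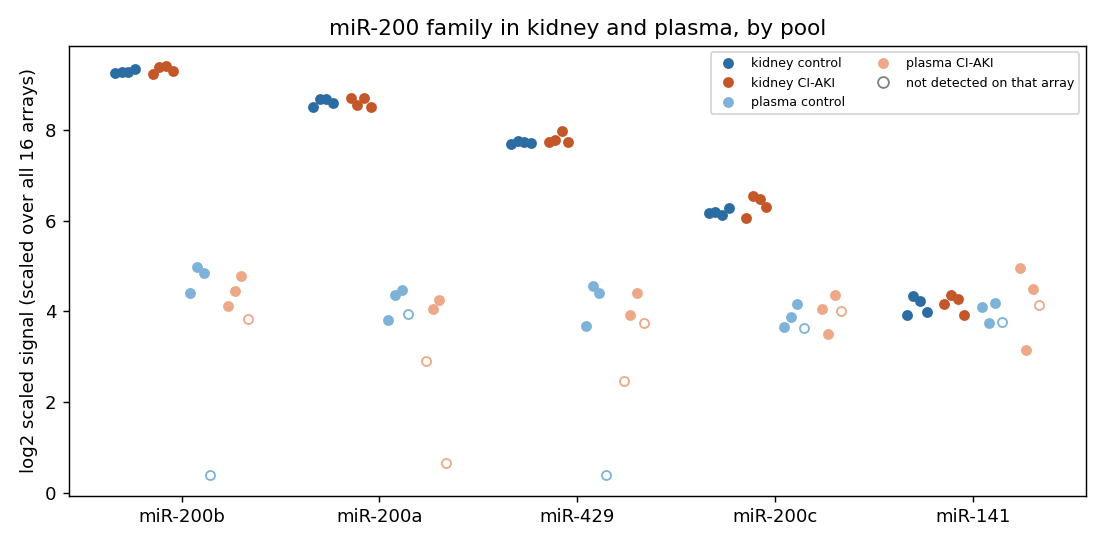
Log2 scaled signal (vertical axis, scaled over all 16 arrays) of each family member in 4 pools of each of the 4 groups. Filled points were detected on that array and open points were not; kidney points lie above plasma points for miR-200b, miR-200a, miR-429 and miR-200c, and overlap them for miR-141.

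The probes of miR-141 gave differences of opposite sign in control pools. Probe A_26_P00001374 read 38.4 to 48.4 in the 4 control kidney pools and 21.2 to 26.9 in control plasma pools 1 to 3, on the 14-array scale. Probe A_26_P00001373 read 12.8 to 15.8 in control kidney and 11.7 to 24.6 in control plasma, where the tissues overlapped. The log2 differences, kidney minus plasma, were 0.84 and -0.37, so the small difference of the averaged miR-141 signal stands between those of 2 probes. For the other 4 members both probes were higher in kidney, by 2.61 and 2.63 on the log2 scale for miR-200c at the low end and 4.65 and 5.38 for miR-200b at the high end.

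The ratio of 2 members on the same array does not depend on how arrays are scaled. It was therefore compared between tissues for all 10 pairs of members, over the arrays on which both were detected, which was chosen after seeing the data. The ratio does depend on background, which weighs most on dim signals such as those of the members in plasma. It was not computed with normexp, and the part of background in the plasma ratios was not tested. The log2 ratio of miR-200b to miR-141 was 5.16 ± 0.17 over 8 kidney arrays and 0.49 ± 0.79 over 6 plasma arrays. All kidney arrays lay above all plasma arrays. For miR-200a over miR-141 it was 4.47 ± 0.15 over 8 kidney arrays and 0.25 ± 0.52 over 5 plasma arrays, and for miR-200c over miR-141, neighbours in 1 cluster, 2.12 ± 0.20 over 8 kidney arrays and -0.17 ± 0.45 over 6 plasma arrays. Within the chromosome 5 cluster the shift was smaller: the ratio of miR-200b to miR-429 was 1.55 ± 0.063 over 8 kidney arrays and 0.51 ± 0.14 over 5 plasma arrays, and that of miR-200b to miR-200a 0.70 ± 0.11 over 8 kidney arrays and 0.51 ± 0.11 over 5 plasma arrays. The ratios of 2 probes' signals have no meaning as amounts; only their difference between tissues is compared.

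Of the 10 pairs, 9 did not overlap between tissues, with adjusted p = 0.00173 by a two-sided exact permutation test over arrays and Benjamini-Hochberg adjustment over the 10 pairs. The raw p were 0.000666 and 0.00155, the smallest that 8 arrays against 6 and 8 against 5 allow. The tenth, miR-200b over miR-200a, overlapped (adjusted p = 0.0218, difference 0.19) and turned to -0.23 when the brightest probe stood for each miRNA. The test takes arrays as independent, although both tissues were taken from the same animals. The 10 ratios are built from 5 members and so are not independent of each other. They largely restate the differences between the members' tissue folds given above, so these p add no separate support. Most miRNAs differed between the tissues: with all control pools kept, 138 of 178 tested passed by limma in either direction. How many pairs of other miRNAs separate the tissues in the same way was not computed. The count of 9 of 10 is therefore not a trait particular to the family. In control pools alone the 9 pairs again did not overlap, with raw p of 0.0571, the smallest that 4 against 3 arrays allow by the exact permutation test. With same-numbered control arrays paired, these 9 ratios were higher in kidney in 3 of 3 pairs, and the exact sign permutation gave p = 0.25, the smallest that 3 pairs allow.

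**Figure D2:**
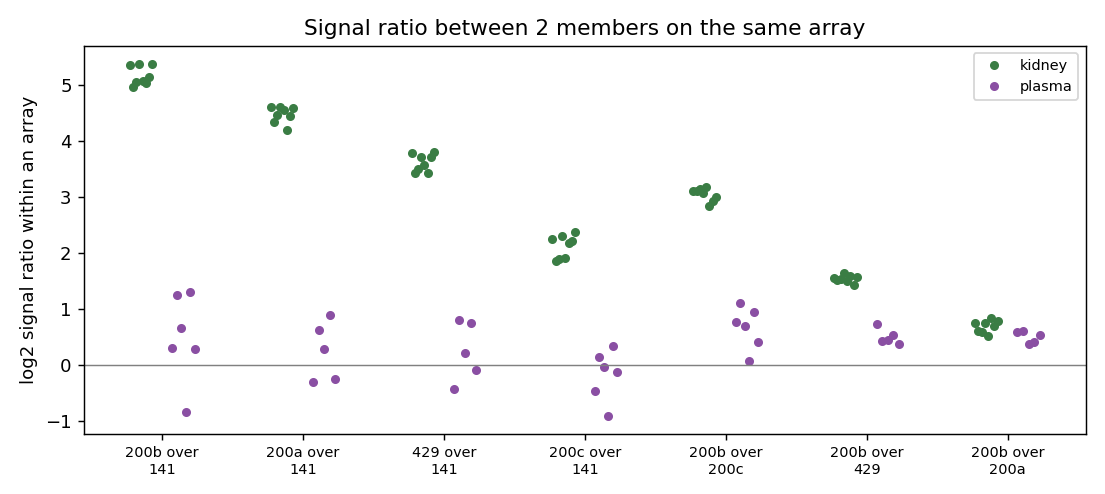
Log2 ratio of the signals of 2 family members on the same array (vertical axis) for 7 of the 10 pairs, each point an array on which both were detected. Kidney arrays lie above plasma arrays for 6 of the 7 pairs shown, and overlap them for miR-200b over miR-200a.

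No member passed the test between CI-AKI and control kidney. On the scale of the 8 kidney arrays, miR-200b read 1307, 1303, 1312 and 1293 in control pools 1 to 4 and 1267, 1385, 1345 and 1352 in CI-AKI pools 1 to 4. The control pools lay close together, and the CI-AKI pools fell on both sides of them. The means were 1304 ± 8.21 and 1337 ± 49.7 (SD, n = 4 each), a log2 difference of 0.036 (SE 0.0558, adjusted p = 0.917).

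MiR-200a read 778, 849.7, 873 and 765 in control kidney and 879, 772, 824 and 784 in CI-AKI kidney. Its groups covered nearly the same range, and the log2 difference was -0.0024 (SE 0.0725, adjusted p = 0.986). MiR-429 read 443, 454, 449.6 and 414 in control and 449, 458, 498 and 456 in CI-AKI kidney. CI-AKI pool 3 was its highest value and control pool 4 its lowest, the groups overlapped, and the log2 difference was 0.08 (SE 0.0629, adjusted p = 0.917).

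MiR-200c had the largest difference of the family in kidney. It read 153, 152, 148 and 155 in control kidney and 141, 193, 177 and 169 in CI-AKI kidney. The control pools were tightly grouped, while CI-AKI pools 2, 3 and 4 lay above them all and pool 1 below them all. The means were 152 ± 2.72 and 170.1 ± 21.9 (SD, n = 4 each), a log2 difference of 0.15 (SE 0.0939, adjusted p = 0.917). MiR-141 was 32.1, 42.1, 39.7 and 31.5 in control and 37.7, 42.5, 38.2 and 32.6 in CI-AKI kidney. Its groups overlapped almost wholly, with a log2 difference of 0.059 (SE 0.119, adjusted p = 0.917).

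By limma, 0 of 5 members passed, against 3 of 176 miRNAs tested in kidney (1.7%), all 3 higher. An unadjusted p under 0.05 by limma was found for 0 of 5 members, against 11 of 176 miRNAs tested. Of the members 4 of 5 lay above 0 with a median log2 difference of 0.059, and of all miRNAs tested 106 of 176 lay above 0 with a median of 0.028. The 95% intervals bound what these pools allow: -0.09 to 0.16 on the log2 scale for miR-200b, -0.17 to 0.16 for miR-200a, -0.062 to 0.22 for miR-429, -0.059 to 0.37 for miR-200c and -0.21 to 0.33 for miR-141. As ratios of CI-AKI to control these intervals run from 0.865 to 1.29 at their widest ends.

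**Figure D3:**
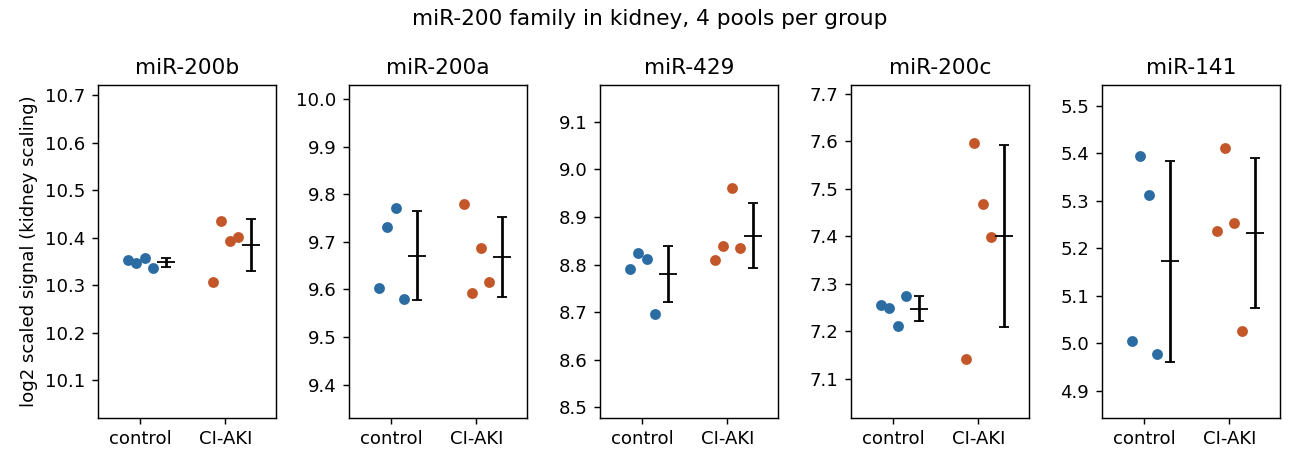
Log2 scaled signal (vertical axis, scaled over the 8 kidney arrays; each panel spans 0.7 units) of each member in 4 control and 4 CI-AKI kidney pools, with the mean and SD beside the points. The groups overlap for all 5 members, and the control pools of miR-200b and miR-200c lie close together.

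Slide rows held both groups (pools 1 and 2 in the first row, pools 3 and 4 in the second). Within rows 1 and 2 the log2 differences in kidney were 0.022 and 0.050 for miR-200b, 0.020 and -0.024 for miR-200a, 0.017 and 0.14 for miR-429, 0.12 and 0.19 for miR-200c and 0.12 and -0.0039 for miR-141. For the letters G and H alone, 1 CI-AKI pool against 1 control pool and so without a test, they were 0.065, 0.035, 0.14, 0.12 and 0.049 in the same order. Probe by probe, the groups overlapped for 9 of the 10 member probes. The exception was A_26_P00001572 of miR-429, whose log2 difference was 0.090. The share of all probes on the array whose groups do not overlap was not computed, so this probe is given as a value only.

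The members differed in how much they varied between kidney pools of a group. Scaled over the 8 kidney arrays, miR-200b had a within-group SD of 0.039 on the log2 scale, the smallest of all 176 miRNAs tested in kidney, whose median was 0.132. The SD was 0.063 for miR-429 (11 miRNAs smaller), 0.089 for miR-200a (41 smaller), 0.137 for miR-200c (92 smaller) and 0.187 for miR-141 (131 smaller). MiR-200b was also the brightest member in kidney and miR-141 the dimmest. The spread also moved with the scaling. Control kidney pools of miR-200b had a mean of 1304 and an SD of 8.21 on the kidney scale. These were 629 and 16.9 on the 16-array scale, and 1026 and 54.6 on the 14-array scale, where the SD of CI-AKI kidney pools was 59.7. The parts of signal level and scaling in these SDs were not tested. In plasma pools 1 to 3 the SD of miR-200b was 0.205, with 12 of 182 miRNAs smaller, and that of miR-141 was 0.729, with 164 smaller.

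Grouped by cluster, the mean log2 signal of the chromosome 5 cluster differed by 0.038 between CI-AKI and control pools, with pools from 9.54 to 9.65 in controls and 9.62 to 9.68 in CI-AKI. That of the chromosome 4 pair differed by 0.11, with pools from 6.13 to 6.32 and 6.19 to 6.50. By seed, the difference was 0.090 for the AAUACUG members miR-200b, miR-429 and miR-200c and 0.028 for the AACACUG members miR-200a and miR-141. These means are descriptions without a test.

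Between kidney pools, miR-200b and miR-200c, which share a seed but lie on different chromosomes, were correlated by 1 of 2 measures. Over the 8 kidney pools Pearson's r was 0.95 (exact permutation p = 0.00233, adjusted over 10 pairs 0.0233), and Spearman's rho was 0.76 (exact permutation p = 0.0368, adjusted 0.184, which did not pass). Without the 2 pools farthest from the median of miR-200b, r was 0.85, and after subtracting group means over all 8 pools it was 0.93. The control pools did not share this trend. Control pool 3 had the highest miR-200b (log2 10.358) and the lowest miR-200c (7.212), and control pool 4 the lowest miR-200b (10.336) and the highest miR-200c (7.274). The CI-AKI pools spread more, from 10.308 to 10.435 and 7.141 to 7.596, and carry the r. The share of all miRNA pairs with as high an r was not computed. None of the other 9 pairs passed for either measure. Among cluster neighbours r was 0.49 for miR-200b with miR-429 (exact permutation p = 0.221, adjusted 0.366), -0.49 for miR-200b with miR-200a (exact permutation p = 0.208, adjusted 0.366), 0.28 for miR-200a with miR-429 (exact permutation p = 0.539, adjusted 0.581) and 0.23 for miR-200c with miR-141 (exact permutation p = 0.581, adjusted 0.581).

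The 5 miRNAs whose kidney profile was most like the mean log2 signal of the family, by Pearson's r over the 8 kidney arrays among 171 other miRNAs, were miR-210 (0.90), miR-326 (0.87), miR-27a (0.82), miR-31 (0.81) and miR-214 (0.73). MiR-210 is a miRNA induced by hypoxia. All points share the arrays' scaling, and these values are descriptions. Their own log2 differences between CI-AKI and control kidney were 0.20, 0.22, 0.25, 0.44 and 0.042, and none passed.

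Other epithelial miRNAs were followed as a list of 15, of which 10 were tested in kidney. By limma 0 of 10 passed, 3 of 10 lay above 0, and the median log2 difference was -0.040, against 106 of 176 above 0 and a median of 0.028 over all miRNAs tested. MiR-31, found in epithelia, had the largest (0.44, SE 0.106, adjusted p = 0.115). MiR-96 and miR-183, processed from 1 cluster and known from sensory epithelium, had -0.25 and -0.21, and miR-192, abundant in tubule, had -0.050. Of a list of 10 miRNAs linked to mesenchymal cells or to epithelial-mesenchymal transition, 9 were on the array and tested. By limma 0 of 9 passed, 5 lay above 0, and the median was 0.031. MiR-221 had -0.096, miR-199a-3p -0.068, miR-145, of smooth muscle, 0.10 and miR-199a-5p 0.059.

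Markers of other cell types were set beside these values. In kidney, summed signals on the 16-array scale of erythroid miR-451 and miR-144 were 105.4 to 227 in control and 183 to 199.7 in CI-AKI pools, with log2 differences of 0.26 and 0.13 that did not pass. The sums of 5 leukocyte miRNAs were 448 to 516 and 415 to 536, those of 2 endothelial strands of miR-126 were 635 to 688 and 616 to 692, and those of 5 stromal and smooth muscle miRNAs 625 to 739 and 608 to 722. The 3 tubule miRNAs summed to 917 to 1041 in control and 903 to 1033 in CI-AKI kidney. Every one of these ranges overlapped between the groups, and their part in the members' values was not tested.

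In plasma the family gave low signals. On the scale of the 8 plasma arrays the lowest detected signal was 0.080 to 3.99 on the arrays of pools 1 to 3 and 20.9 and 18.4 on those of pool 4, above every value of a member in pools 1 to 3. Without pool 4, on the scale of the 155 miRNAs detected on the 6 plasma arrays left, pools 1 to 3 of control plasma read 21.4, 26.6 and 23.3 for miR-200b, and those of CI-AKI plasma 18.9, 21.7 and 26.4. MiR-200a read 14.1, 17.3 and 17.8 in control and 8.08, 16.4 and 18.1 in CI-AKI plasma, and miR-429 read 12.9, 19.7 and 17 and 5.98, 15 and 20.2. CI-AKI pool 1 was the lowest value of these 3 members, and miR-200a and miR-429 were not detected there.

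Of the chromosome 4 pair, miR-200c read 12.6, 12.4 and 14.4 in control and 18, 11.2 and 19.7 in CI-AKI plasma, and miR-141 17.3, 11.2 and 14.7 and 33.7, 8.85 and 21.5. For both, CI-AKI pool 2 was the lowest of the 6 values and a CI-AKI pool also the highest, pool 3 for miR-200c and pool 1 for miR-141. The groups overlapped for all 5 members.

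Since no member was detected on all 4 arrays of a plasma group, none was tested with all pools under the main filter. Where detection on at least 1 array was enough, 0 of 5 members passed by limma with all pools, against 0 of 233 miRNAs tested. Undetected pool 4 values entered that fit at low values or at the floor. Without the 2 pool 4 arrays, which were the arrays on which all members were undetected, 0 of 5 members passed, against 0 of 182 miRNAs tested (0%); 32 of these 182 had an unadjusted p under 0.05 by limma, and 0 of the members. On the same 6-array scale the log2 differences, CI-AKI minus control, were -0.098 (SE 0.31, adjusted p = 0.95) for miR-200b, -0.29 (SE 0.366, adjusted p = 0.768) for miR-200a, -0.42 (SE 0.432, adjusted p = 0.732) for miR-429, 0.27 (SE 0.33, adjusted p = 0.76) for miR-200c and 0.39 (SE 0.448, adjusted p = 0.75) for miR-141. The 95% intervals were wide, from -1.35 to 0.52 for miR-429 and -0.58 to 1.36 for miR-141 to -0.77 to 0.57 for miR-200b. These differences moved with the scaling: with the scale of all 8 plasma arrays kept and pool 4 left out, they were -0.35 for miR-200b, -0.54 for miR-200a, -0.67 for miR-429, 0.021 for miR-200c and 0.14 for miR-141, and 0 of 5 passed (lowest adjusted p = 0.631). Of 3 same-numbered pairs, CI-AKI was lower in 3 for miR-200b, miR-200a and miR-429 on that scale and in 2 on the 6-array scale. Same-numbered plasma pools deviated together in a check that included pool 4. With the pool number as a replicate block in the 6-array fit, 0 of 5 members passed by limma against 1 of 182 miRNAs tested (0.549%). The adjusted p ran from 0.481 (miR-429) to 0.917 (miR-200b). With pool 4 kept, the same differences were 0.44, -1.14, 0.18, 0.10 and 0.19, given as values only. The erythroid sums on the 16-array scale were 5425 to 8938 in control and 3535 to 13264 in CI-AKI plasma, and those of the liver miRNA miR-122 2173 to 4283 and 689 to 6188. Their part in the plasma values was not tested.

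Whether the treatment difference itself differed between the tissues was tested without the same 2 arrays. By limma 0 of 5 members passed, against 2 of 152 miRNAs tested (1.32%). The difference in kidney minus the difference in plasma was 0.16 (SE 0.239, adjusted p = 0.837) for miR-200b, 0.31 (SE 0.343, adjusted p = 0.769) for miR-200a, 0.52 (SE 0.455, adjusted p = 0.72) for miR-429, -0.095 (SE 0.305, adjusted p = 0.932) for miR-200c and -0.30 (SE 0.468, adjusted p = 0.837) for miR-141. With the scaling over 16 arrays kept, the values were 0.33, 0.48, 0.69, 0.074 and -0.13 in the same order, and 0 of 5 passed; miR-200c changed sign. With a replicate block 0 of 5 passed as well. On the 14-array scale the intervals reached from -1.30 (miR-141) to 1.49 (miR-429), wider than those in kidney alone.

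**Figure D4:**
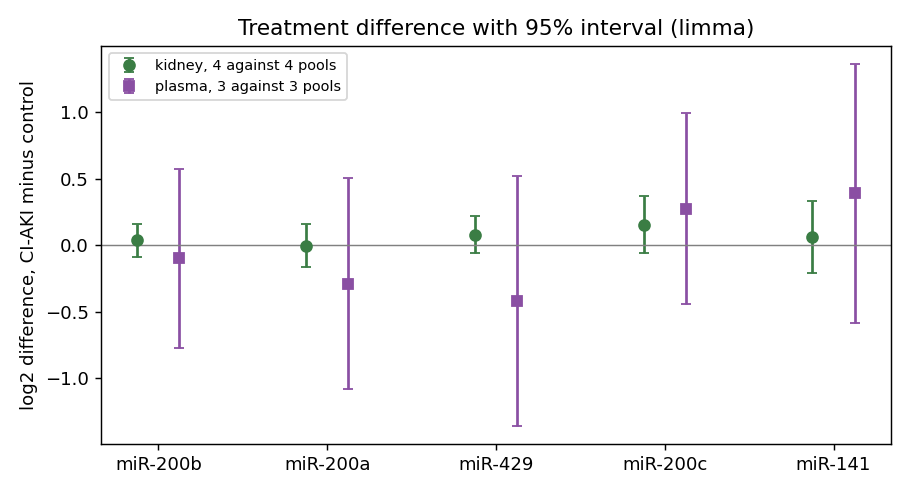
Log2 difference between CI-AKI and control (vertical axis) of each member with its 95% interval, in kidney with 4 against 4 pools (circles) and in plasma with pools 1 to 3 only, scaled over those 6 arrays (squares). Every interval includes 0, and the plasma intervals are wider than those of kidney.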

How the data were processed

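RNA pools of 3 rats were read on 1-colour Agilent rat miRNA arrays. Per the file headers, spot intensity was extracted with Feature Extraction 10.7.3.1; the deposited processed signal is background-corrected. A further table deposited by the authors holds log2 values; its columns correlated at 0.9804 to 0.9982 with the log2 processed signal of the same array over detected miRNAs and had medians of 1.94 to 2.22; its normalization is not given in the sources used here, and it served as an alternative. Other flags per spot and miRNA (outlier, detection) were used as deposited.

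Here, processed signals were averaged over unflagged spots of a probe and over the probes of a miRNA, and divided by the array's 75th percentile over the miRNAs that every array of the tissue detected (163 in kidney, 74 in plasma) or, between tissues, on all 16 arrays (65). Where plasma pool 4 was left out, the percentile was taken anew over the miRNAs detected on the 14 arrays left (126, floor 1.9) or the 6 plasma arrays left (155, floor 1.52), unless the text says that the scaling was kept. Values under a floor (1.79 in kidney, 0.976 in plasma, 1.31 over 16 arrays; each array's lowest detected signal, median over arrays) were set to it, and log2 was taken, which understates differences of dim miRNAs. A miRNA was tested where every array of 1 or more compared groups detected it, with limma 3.58.1 (lmFit and eBayes, two-sided, R 4.3.3), Benjamini-Hochberg adjusted over all of them, with a threshold of 0.05. The code was tested on simulated data. The number of pools limits the precision. Scaling, background correction, probe summary, floor, filter, fits, slide row, replicate number and left-out arrays were varied. Normexp was run on median spot signals and median backgrounds with an offset of 50.

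Named are the 5 members, the 5 miRNAs most like their mean in kidney, and up to 4 miRNAs with the smallest p of each list. The members and lists were chosen with earlier results of these data known. Pool numbers in the titles were checked for pairing by the correlation of same-numbered pools' deviations from their group means, and taken to pair pools where every pair was over 0.1. Control with CI-AKI pools gave 0.20, 0.59, -0.10 and 0.15 in kidney, so 3 of 4 were over 0.1 and the rule was not met, and 0.22, 0.49, 0.62 and 0.60 in plasma, where it was. Kidney with plasma pools gave 0.18, 0.48, 0.33 and 0.26 for controls, where it was met, and -0.019, 0.37, -0.0055 and -0.051 for CI-AKI, where it was not. The weak plasma pool 4 was in the plasma group means of these checks, and pairing was not checked without it. Fits are without the block unless stated; same-numbered arrays also share a slide row.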

Additional observations from a re-analysis of the deposited data

Results flagged for a closer look

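For miR-200b in control plasma, 1 pool lay far from the other 3. The gap of pool 4 to the next pool was 0.85 of the range of the group on the log2 scale, with pools 1 to 3 at 3.36, 3.94 and 3.86 and pool 4 at -0.034. The pool 4 value is the floor, miR-200b was not detected on that array, and the array's lowest detected signal was above all 3 other values. Of 20 groups of 4 pools checked, this was the 1 found, and chance gives about 1 in 20.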

How the results depend on the processing

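In kidney, 0 of 5 members passed between CI-AKI and control under every alternative run, including the fit with a replicate block (0 members). Small differences changed sign: miR-141 was -0.013 and miR-200b -0.0033 with the brightest probe, miR-200b -0.0065 without scaling, and miR-200a 0.028 with the percentile over all miRNAs. Leaving out 1 pool at a time moved miR-141 from -0.0058 to 0.13, miR-200a from -0.040 to 0.023 and miR-200b from -0.00075 to 0.061. Between tissues, with all pools kept, 4 members passed for control pools and 4 for CI-AKI pools. Of all miRNAs, 59 of 178 and 51 of 181 then passed as higher in kidney. With the replicate block it was 4 and 4 too, against 55 of 178 and 52 of 181. Without any 1 pool it was again 4, against 53 to 64 miRNAs in control and 47 to 58 in CI-AKI pools. In tissue fits that kept plasma pool 4 under the main filter, every member entered only through detection in kidney. Those calls add no support. In CI-AKI pools 5 passed in the authors' deposited table, on unscaled signals and after quantile normalization. Of all 181 miRNAs tested, 74, 67 and 76 then passed as higher in kidney, against 51 in the main fit. Normexp background correction left 2 among control pools, against 16 of 178 miRNAs that passed as higher in kidney. It left none (0) among CI-AKI pools, against 5 of 181. The count of members was 0 in both where detection on every array was required, since no member was then tested. Normexp turned miR-200c to -0.054 in control and -0.89 in CI-AKI pools. It turned miR-141 to -1.20 in control pools, where the total signal gave -0.054. The normexp offset of 50 was above every processed plasma signal of a member, which reached at most 44.8. The cause of these changes was not tested. MiR-141 in CI-AKI pools, at -0.013, was 0.77 with the percentile over all miRNAs, 0.42 with the median, 2.09 without scaling, 1.39 with quantile normalization, 1.22 in the deposited table of the authors, 0.26 with the brightest probe, 0.066 with the total signal, 0.12 without the 2 pool 4 arrays, 0.18 without them in a fit with a replicate block, -2.10 with normexp, and -0.36 to 0.24 without 1 pool. In control pools miR-141 passed under 6 of 24 alternatives that tested it. The ratio of miR-200b to miR-200a turned to -0.23 with the brightest probe. The replicate block took the call of miR-141 in control pools from the limma fit without pool 4 (adjusted p = 0.0845) and changed no other call of a member. Under the main filter no member was tested in plasma with all pools, with or without the block. With detection on at least 1 array required, 0 of 5 passed there. Keeping the scaling, the block without pool 4 and the paired ratios were chosen after seeing the data. Low signal over background limits every plasma value of the family, and 3 or 4 pools a group limit the intervals.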
